A study of Mus musculus with 10 samples.

Results

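The genes described here encode the machines that either spend ATP to move ions, metals or lipids across membranes or make ATP from a proton gradient. They were taken by symbol, as protein-coding genes whose name begins with Atp and a digit, and by level, with a mean over all 10 libraries of 10 normalized counts or more. Of 85 such protein-coding symbols 75 reached that mean, among 17007 genes that did so in a table of 48526 identifiers. They comprise 36 P-type pump genes, 17 genes of the mitochondrial ATP synthase and 21 genes of the vacuolar proton pump (V-ATPase). The remaining member, Atp23, fits the symbol only: it encodes a mitochondrial metallopeptidase and no pump. The members were selected on their mean level, so their presence in the tissue is not a finding. The rule did not use the difference between the groups, but it was set with earlier results of these data known. Of the members 1, Atp4a, reached the mean only through its Sox11 values.

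P-type pumps form a phosphorylated intermediate in each cycle and include the sodium pump, which restores the sodium and potassium gradients after neuronal firing, the calcium pumps of the plasma membrane and the endoplasmic reticulum, the copper pumps and the lipid flippases. The ATP synthase of the inner mitochondrial membrane couples the flow of protons through a rotating ring to ATP synthesis in its F1 head. The V-ATPase runs the reverse reaction, with a V1 sector that splits ATP and a membrane-embedded Vo sector that carries protons, and it acidifies lysosomes, endosomes and synaptic vesicles, where the gradient drives transmitter loading.

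RNA came from microdissected dentate gyrus of C57Bl/6 mice aged 8 weeks. Adeno-associated virus (AAV) of serotype 9 had been injected into the gyrus on either side, carrying Sox11 in 5 mice and green fluorescent protein (GFP) in 5 control mice, so that both groups had the surgery and a virus. Sox11 is a transcription factor of newborn neurons. The promoter in the virus, the cells it reached and the time from injection to dissection were not found in the labels. In the deposited table the GFP libraries are numbered 1, 3, 4, 5 and 6 and the Sox11 libraries 1, 2, 3, 6 and 7, and values by library are given in that order.

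The libraries held 45100154 to 68769808 reads assigned to genes. Sox11 itself ranged from 1364 to 1634 normalized counts with the GFP virus and from 9803 to 20434 with the Sox11 virus; reads of the viral copy and of the mouse gene are not separated in these counts. GFP 3 stood apart by its choroid plexus markers, all 14 of which were detected, with a summed level of 585485 normalized counts against 5100 to 9610 in the other GFP libraries and 4422 to 8429 in the Sox11 libraries. Calls that changed when GFP 3 was left out are therefore given without it as well, as are several differences of described genes that turned or moved without it. Of the 8 neuron markers 5 fell (Snap25, Eno2, Syt1, Nefm and Nefl) and none rose, and their summed level was 362146 to 449082 normalized counts in GFP and 337366 to 357071 in Sox11 libraries. Of the 10 interneuron markers 4 fell, with sums of 40683 to 48304 in GFP and 31513 to 39216 in Sox11 libraries. The immature neuron markers went the other way, with 9 of 12 higher in Sox11 and sums of 37922 to 45335 against 85026 to 110398. Of 12 astrocyte markers 4 rose, as did 3 of 10 microglia markers, while the sums of both lists overlapped between the groups (311109 to 392821 against 341187 to 421705 for astrocytes, 23809 to 28701 against 23669 to 29041 for microglia). Of the 8 granule neuron markers 1 rose and 2 fell. Their sums overlapped, at 61541 to 85198 in GFP and 63364 to 86890 in Sox11 libraries. No oligodendrocyte marker (of 10) or endothelium and pericyte marker (of 12) passed the threshold, and no marker of any list was at 0 in all libraries. Beside these counts, 9.65% of all genes tested rose and 9.36% fell.

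Across the 75 genes, 3 rose and 17 fell in the Sox11 group, and 55 did not pass the threshold, an adjusted p below 0.05 by limma on log2(normalized count + 1). The share that changed was 26.7%, beside 19.0% of all genes tested. The share that fell was 22.7% beside 9.36% of all genes, and the share that rose 4.0% beside 9.65%. The shares that rose and changed count Atp4a, which reached the mean of 10 only through its Sox11 values and whose call carries little weight. Abundant genes pass more often, so the 54 members whose mean reached 1000 normalized counts were also read against the other genes of such a level: 2 rose and 16 fell (33.3% changed), beside 26.2% of 8149 genes changed, 11.6% higher and 14.5% lower. The log2 difference, Sox11 minus GFP, had a median of -0.07 over the members and -0.01 over all genes tested, and it was below 0 in 51 of the 75. The differences were small, from -0.61 (Atp6v1c2, which did not pass) to 1.10 (Atp4a), and the largest among those that fell was -0.38. In bulk tissue, fewer cells of a type and less RNA per cell cannot be told apart. The lower sums of the neuron and interneuron markers stand beside these falls, while those of the granule neuron markers overlapped between the groups. The part of any of these cells in the falls was not tested.

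**Figure D1:**
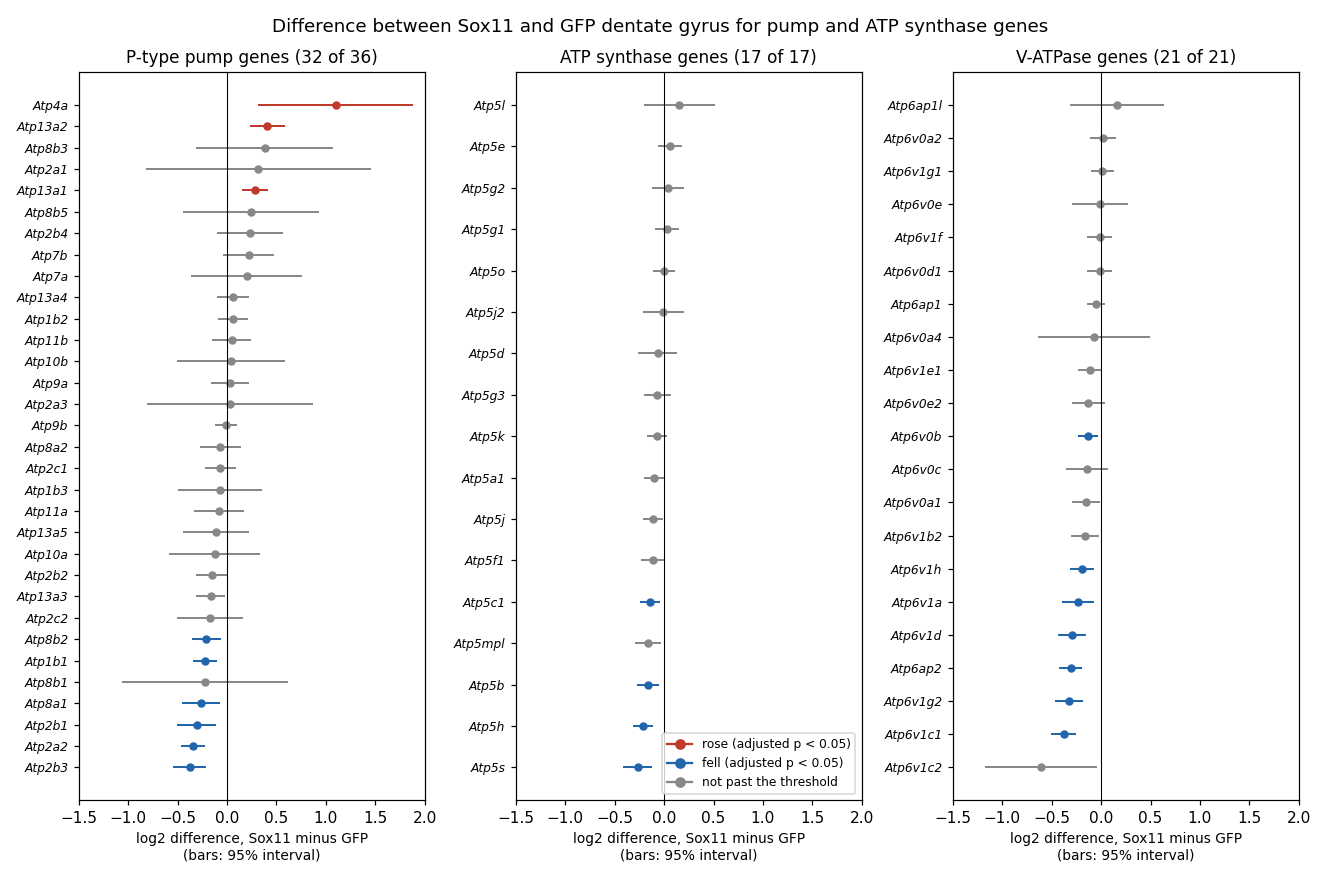
Log2 difference (Sox11 minus GFP, horizontal axis) for 32 of the 36 P-type pump genes and each ATP synthase and V-ATPase gene, with points for the limma estimate over 5 GFP and 5 Sox11 libraries and bars for its 95% interval. Red points rose, blue points fell and grey points did not pass the threshold: the V-ATPase panel has 7 blue and no red points, and red points occur in the P-type panel only.

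The groups of 5 did not overlap for 16 members (21.3%), beside 15.9% of all genes tested and 21.8% of those with a mean of at least 1000. Of the 20 genes past the threshold, 15 had no overlap between the groups, and 11 stayed past it whichever library was left out. When the libraries with column numbers 1 to 3 and those with numbers of 4 and above were fitted separately, all 20 had the same sign in both divisions, as had all 3234 genes past the threshold in the whole table. In the libraries numbered 1 to 3 (2 GFP, 3 Sox11) 5 of the 75 members passed, beside 1013 of the 17007 genes tested (5.96%). In those numbered 4 and above (3 GFP, 2 Sox11) 18 of 75 passed, beside 2583 of 17007 (15.2%). With column numbers as a covariate 19 of 75 members passed, beside 4048 of 17007 genes (23.8%). The fit without GFP 3 called 22 of 75, beside 3268 of 17007 (19.2%). By edgeR 18 of 75 passed, beside 3237 of 17007 (19.0%), and by DESeq2 25 of 75, beside 4080 of 17007 (24.0%).

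**Figure D2:**
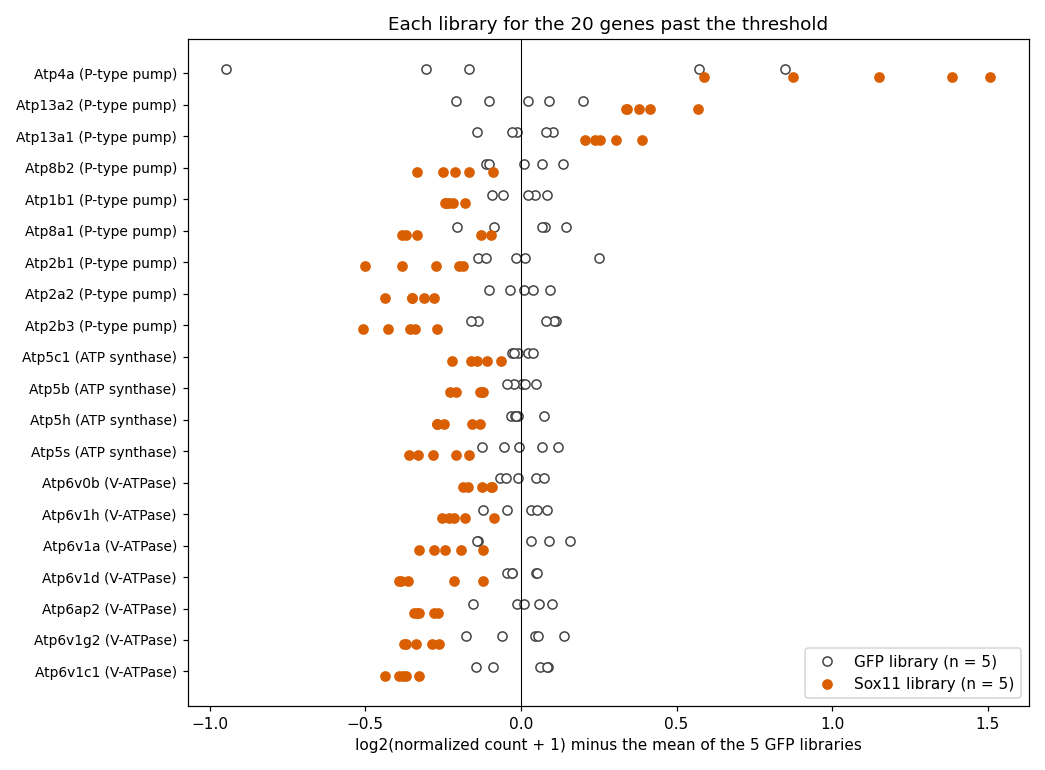
Level of each of the 20 genes past the threshold in every library, as log2(normalized count + 1) minus the mean of the 5 GFP libraries (horizontal axis), with open circles for GFP and filled circles for Sox11. The filled circles lie to the left for the 17 genes that fell and to the right for Atp13a1, Atp13a2 and Atp4a, and Atp4a has the widest spread in both groups.

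Levels between genes were compared per kb of annotated exon. In the GFP group the sodium pump gene Atp1b1 (32977 normalized counts per kb, coefficient of variation 5.07% over 5 libraries) was the most abundant P-type gene. Of the ATP synthase genes the most abundant were the F1 subunits Atp5a1 (15720, 2.64%), Atp5b (14109, 2.46%) and Atp5c1 (6321, 2.01%). In the V-ATPase the highest levels per kb belonged to the Vo subunit Atp6v0e2 (10082, 10.4%) and the V1 subunits Atp6v1g2 (9943, 8.31%) and Atp6v1a (8442, 9.34%); the first of these did not differ from the next beyond their spread. At the other end, Atp8b3 (mean 12.9 normalized counts), Atp8b5 (13.6) and Atp4a (15.1) lay just inside the minimum mean of 10, and Atp8b4 (4.44) and Atp12a (4.35) just outside it.

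**Figure D3:**
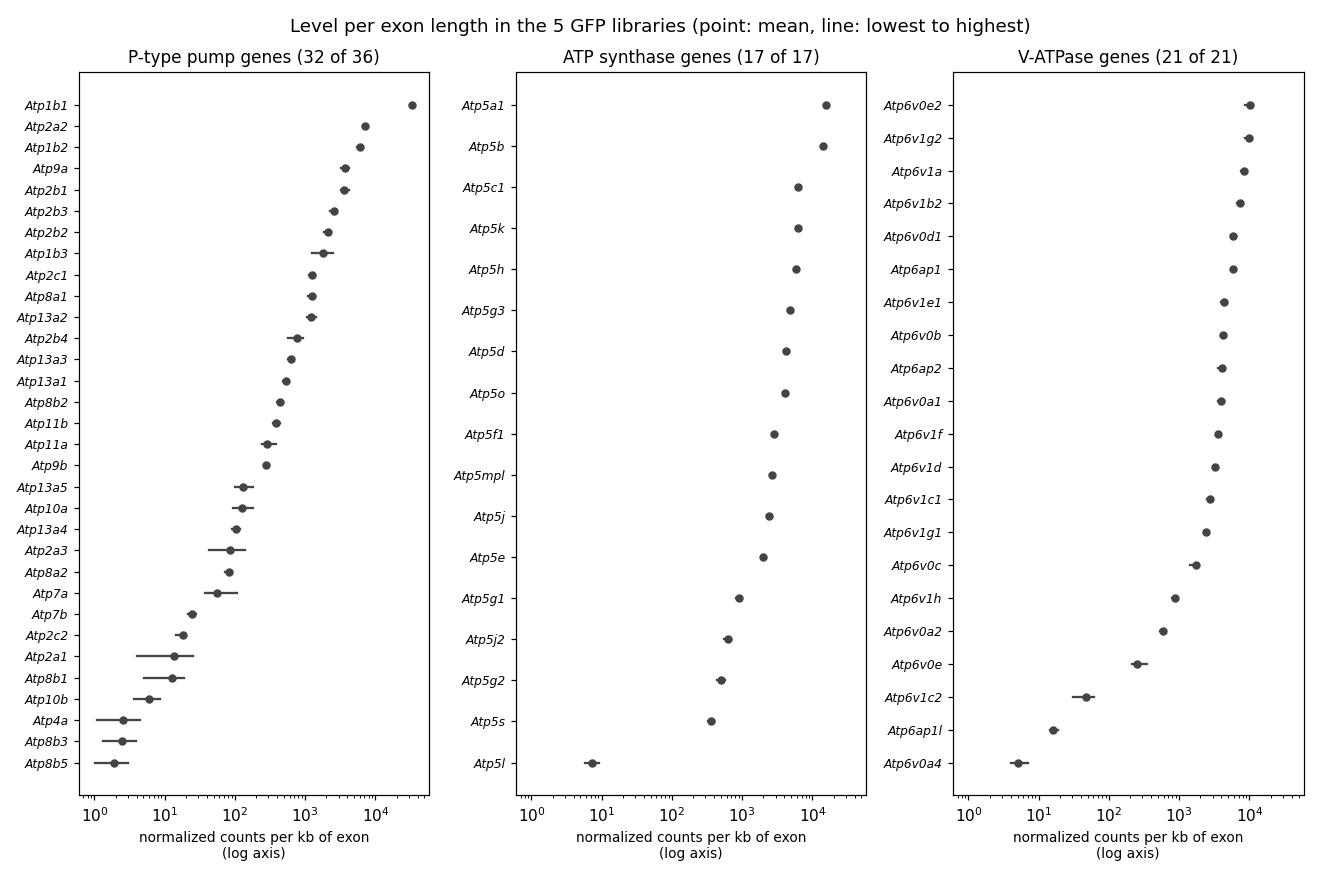
Level in the 5 GFP libraries as normalized counts per kb of exon (horizontal log axis), with a point for the mean and a line from the lowest to the highest library for 32 of the 36 P-type genes and each gene of the other classes. P-type genes span the widest range, from Atp8b5 at 1.93 to Atp1b1 at 32977, while most ATP synthase and V-ATPase genes lie close together at the upper end.

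Among the 36 P-type genes 3 rose and 6 fell (25.0% changed, beside 19.0% of all genes tested and 26.2% of those with a mean of at least 1000), with a median log2 difference of -0.07. The 3 that rose include Atp4a, which reached the mean of 10 only through its Sox11 values. The beta subunit of the sodium pump is needed for the pump to reach the membrane. Of the 3 tested beta subunit genes 1 fell, beside 9.36% of all genes tested. Atp1b1 (ENSMUSG00000026576, chromosome 1, 164437109 to 164458355, minus strand, GRCm38), the beta subunit common in neurons, was at 95198, 97425, 104620, 103137 and 107630 normalized counts in the GFP and 89701, 87221, 85638, 86494 and 85945 in the Sox11 libraries. Every Sox11 library was below every GFP library, and the Sox11 values lay close together. Its mean fell by 14.4%, a log2 difference of -0.22 (SE 0.05, adjusted p = 0.0105) by limma. Genes on the opposite strand cover 18.7% of its exonic bases and 83.1% of its 31-base words occur in no other gene, so part of its reads could be shared. The glial beta subunit Atp1b2 (22619 to 26496 against 23098 to 27363 normalized counts, lowest to highest of 5) and Atp1b3 (2962 to 6010 against 3515 to 4384) overlapped between the groups, with log2 differences of 0.06 (SE 0.06) and -0.07 (SE 0.19). Without GFP 3 that of Atp1b3 was 0.07. Within the beta transcripts the share of Atp1b1 was 80.7 ± 2.6% in GFP and 78.0 ± 0.75% in Sox11 libraries (mean ± SD of shares per kb, n = 5), and these ranges overlapped.

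Calcium pumps of the endoplasmic reticulum changed in 1 of 3 genes (33.3%, beside 19.0% of all genes tested). Atp2a2 (ENSMUSG00000029467, chromosome 5, 122453513 to 122502225, minus strand), which encodes SERCA2, the pump that refills the reticulum in most cells, was at 40141, 42032, 45917, 43354 and 44214 normalized counts in the GFP and 34724, 33811, 33791, 35505 and 31817 in the Sox11 libraries. The groups did not overlap. Its mean fell by 21.3% (log2 difference -0.35, SE 0.05, adjusted p = 0.000994 by limma). Atp2a1, the form of fast muscle, and Atp2a3 ranged from 14.2 to 87.5 and from 228 to 724 normalized counts within the GFP group alone, and their 95% intervals were -0.82 to 1.45 and -0.80 to 0.86, too wide to show a change of the size seen for Atp2a2. Without GFP 3 their log2 differences went from 0.31 to 0.61 and from 0.03 to 0.24.

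Among the 4 pumps that export calcium across the plasma membrane 2 fell. Atp2b3 (ENSMUSG00000031376, chromosome X, 73503086 to 73571005, plus strand), a form of restricted expression that is found in brain, was at 11190, 13301, 10998, 13227 and 13004 normalized counts in GFP and 9717, 8659, 10204, 9605 and 9139 in Sox11 libraries. All Sox11 values lay below all GFP values, and the mean fell by 23.3% (log2 difference -0.38, SE 0.07, adjusted p = 0.00338). The widely expressed Atp2b1 (ENSMUSG00000019943, chromosome 10, 98914406 to 99026143, plus strand) was at 48568, 53865, 63520, 52861 and 49415 and 44238, 40980, 37711, 46958 and 46562 normalized counts. The groups again did not overlap, with GFP 4 the highest library, and the log2 difference was -0.31 (SE 0.09, adjusted p = 0.0272). Without GFP 4, or Sox11 2 or 3 its adjusted p rose to at most 0.0641. Atp2b2 was lower by an amount that did not pass (log2 difference -0.15, SE 0.07, adjusted p = 0.164), and Atp2b4 was the one member of this family with a difference above 0, at 9240 ± 2088 normalized counts in GFP and 10676 ± 1101 in Sox11 libraries (log2 difference 0.23, SE 0.15, adjusted p = 0.313). Without GFP 3 the log2 difference of Atp2b4 was 0.13. Its share of the family's transcripts per kb was 8.46 ± 1.9% in GFP and 11.5 ± 0.96% in Sox11 libraries. The GFP share was lowest in GFP 3 and GFP 4, at 6.26% and 6.60%.

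The 2 Golgi pumps for calcium and manganese, Atp2c1 (log2 difference -0.07, SE 0.07) and Atp2c2 (log2 difference -0.17, SE 0.15), did not pass. Nor did the copper pumps Atp7a (323 to 923 normalized counts in GFP and 468 to 556 in Sox11 libraries) and Atp7b (141 to 183 and 155 to 211). The GFP maximum of Atp7a was GFP 3, the library with the choroid plexus markers. Without GFP 3 every Sox11 library was above every GFP library, and the log2 difference of Atp7a went from 0.20 (adjusted p = 0.66) to 0.46 (adjusted p = 0.0142 by limma).

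Of the 13 tested flippases, which turn lipids from the outer to the inner leaflet of a membrane, 2 fell and none rose. The share that fell was 15.4%, beside 9.36% of all genes tested and 14.5% of those with a mean of at least 1000. Atp8a1 (ENSMUSG00000037685, chromosome 5, 67618140 to 67847434, minus strand), a flippase for phosphatidylserine, was at 15500, 16809, 18851, 19761 and 18732 normalized counts in GFP and 13693, 14172, 13829, 16710 and 16333 in Sox11 libraries. GFP 1 lay below Sox11 6 and Sox11 7, so the groups overlapped, and the log2 difference was -0.26 (SE 0.08, adjusted p = 0.0448). Atp8b2 (ENSMUSG00000060671, chromosome 3, 89939481 to 89963508, minus strand) was at 3918, 3458, 3485, 3768 and 4108 and 3229, 3331, 3517, 3143 and 2966 normalized counts, with an overlap of Sox11 3 with GFP 3 and GFP 4, and a log2 difference of -0.21 (SE 0.06, adjusted p = 0.0338). Both calls were weak: without GFP 4, 5 or 6, or Sox11 1, 2 or 3 the adjusted p of Atp8a1 rose to at most 0.104, and without GFP 1, 5 or 6, or Sox11 1, 2, 6 or 7 that of Atp8b2 to at most 0.0776. Atp9a, the most abundant flippase gene per kb (3683 in GFP), differed by 0.03 with an interval of -0.15 to 0.21, and by -0.02 without GFP 3.

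The P5 pumps held both of the well-measured increases. Atp13a2 (ENSMUSG00000036622, chromosome 4, 140986873 to 141007330, plus strand), a polyamine exporter of the lysosome whose loss in people causes a form of parkinsonism, was at 7469, 6358, 6844, 7822 and 8433 normalized counts in GFP and 9554, 9312, 10901, 9790 and 9284 in Sox11 libraries. Each Sox11 library exceeded the highest GFP library, and the log2 difference was 0.41 (SE 0.08, adjusted p = 0.00392) by limma. Atp13a1 (ENSMUSG00000031862, chromosome 8, 69791163 to 69807749, plus strand), a pump of the endoplasmic reticulum that removes mislocalized membrane proteins, was at 2068, 2047, 1894, 2242 and 2206 and 2581, 2489, 2736, 2406 and 2463 normalized counts. The groups did not overlap, the log2 difference was 0.28 (SE 0.06, adjusted p = 0.00513), and both genes passed whichever library was left out. Atp13a3 differed in the other direction without passing (log2 difference -0.17, SE 0.06, adjusted p = 0.0908) and passed when Sox11 7 was left out (adjusted p = 0.0396). Atp13a4 and Atp13a5 differed by 0.06 (SE 0.07) and -0.11 (SE 0.15), and by 0.11 and 0.00 without GFP 3.

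The proton pump of the stomach, Atp4a, stood at the edge of both the level and the threshold. Its values were 13.5, 6.91, 7.70, 4.07 and 16.6 normalized counts in GFP and 24.5, 26.8, 13.7, 20.7 and 16.9 in Sox11 libraries, and GFP 6 exceeded Sox11 3. The log2 difference was 1.10 (SE 0.35, adjusted p = 0.0499) on the log2(value + 1) scale, which understates changes at this level. The GFP mean of 9.76 ± 5.15 is below 10, so the gene entered the tests through its Sox11 values (20.5 ± 5.37) and its call carries little weight. Without GFP 3, 4 or 5, or Sox11 1, 2, 3, 6 or 7 the adjusted p rose to at most 0.112, and edgeR gave 0.0611 and DESeq2 0.0626. The related non-gastric proton pump Atp12a had too few reads to be tested, at 0, 1.15, 0, 1.02 and 3.12 normalized counts in GFP and 7.92, 6.95, 7.61, 7.31 and 8.47 in Sox11 libraries. Its groups did not overlap, at a few reads per library and with genes on the opposite strand covering 13.9% of its exonic bases. Of the other members below the minimum mean, Atp8b4 overlapped between the groups (1.04 to 5.76 against 3.18 to 9.89 normalized counts), Atp1b4 and Atp4b were at 0 in every library, and the remaining 6 had means below those of Atp12a and Atp8b4.

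Among the 17 ATP synthase genes 4 fell (23.5%, beside 9.36% of all genes tested and 14.5% of those with a mean of at least 1000) and none rose, and 13 had a log2 difference below 0, with a median of -0.07. The median deviation of the class from the GFP mean was -0.03 to 0.03 on the log2 scale in the GFP libraries and -0.12 to -0.05 in the Sox11 libraries, without overlap. Of the 5 F1 head genes 2 fell (40.0%, beside 9.36% of all genes tested). Atp5b (ENSMUSG00000025393, chromosome 10, 128083273 to 128090391, plus strand), the subunit that makes ATP, was at 59879, 58864, 57972, 60356 and 61835 normalized counts in GFP and 54752, 54538, 54886, 51700 and 51075 in Sox11 libraries. The groups did not overlap, although the mean fell by only 10.7% (log2 difference -0.16, SE 0.05, adjusted p = 0.0265 by limma). Atp5c1 (ENSMUSG00000025781, chromosome 2, 10056016 to 10080510, minus strand), the shaft that turns within the head, was at 11828, 11969, 12248, 12380 and 11875 and 10332, 10784, 10928, 11547 and 11184 normalized counts, without overlap (log2 difference -0.14, SE 0.04, adjusted p = 0.0363). The partner of Atp5b in the head, Atp5a1, was at 48079 to 51037 normalized counts in GFP and 44751 to 47100 in Sox11 libraries and likewise did not overlap, but its difference of -0.10 (SE 0.04) did not pass in limma (adjusted p = 0.116) and passed in DESeq2 (adjusted p = 0.00142). The small head subunits Atp5d and Atp5e differed by -0.06 (SE 0.08) and 0.06 (SE 0.05). The call of Atp5b was lost without GFP 5 or 6, or Sox11 6 or 7 (adjusted p at most 0.065), and that of Atp5c1 without GFP 1, 4, 5 or 6, or Sox11 1, 2 or 3 (at most 0.094).

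Of the peripheral stalk, which holds the head still, 1 of 4 genes fell (25.0%, beside 9.36% of all genes tested). Atp5h (ENSMUSG00000034566, chromosome 11, 115415689 to 115419962, minus strand) was at 8332, 8955, 8402, 8463 and 8427 normalized counts in GFP and 7771, 7638, 7060, 7167 and 7068 in Sox11 libraries. GFP 3 was the highest, the groups did not overlap, and the log2 difference was -0.21 (SE 0.04, adjusted p = 0.00563), or -0.20 without GFP 3 (adjusted p = 0.0111). Only 74.6% of its 31-base words occur in no other gene, so its count is uncertain. Atp5f1 and Atp5j differed by -0.11 (SE 0.05) and -0.11 (SE 0.04), with unadjusted p of 0.0392 and 0.0212 that became 0.133 and 0.0877 after adjustment. Atp5o, with 50.4% of its words to itself, stood at 7956 ± 307 and 7941 ± 359.7 normalized counts (log2 difference -0.00, SE 0.05). The groups covered nearly the same range for this gene. Its 95% interval was -0.10 to 0.10.

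The proton-carrying ring is encoded by Atp5g1, Atp5g2 and Atp5g3, which give the same mature protein, and none of them passed: the log2 differences were 0.03 (SE 0.05), 0.04 (SE 0.07) and -0.07 (SE 0.06). Of the words of Atp5g1 and Atp5g2, 85.9% and 59.8% are their own. Atp5g3 supplied most ring transcripts per kb in both groups, 77.4 ± 0.44% in GFP and 76.1 ± 0.95% in Sox11 libraries. Of the 4 accessory membrane genes none passed, with log2 differences from -0.16 (Atp5mpl, adjusted p = 0.0656, and 0.041 without Sox11 6) to 0.15 (Atp5l). Atp5l was counted at only 46.9 ± 9.74 normalized counts in GFP libraries, far below the other subunits, and 85.8% of its words are its own. The fourth gene that fell, Atp5s (ENSMUSG00000054894, chromosome 12, 69724950 to 69744660, plus strand), encodes a factor associated with the enzyme and no core subunit. It was at 675, 802, 772, 709.6 and 734 normalized counts in GFP and 607, 586, 575, 656 and 637 in Sox11 libraries. The groups did not overlap, the log2 difference of -0.27 (SE 0.06, adjusted p = 0.0131) was the largest of the class among genes past the threshold, and the call held whichever library was left out.

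The V-ATPase had 7 genes that fell and none that rose among 21 (33.3% changed, beside 19.0% of all genes tested and 26.2% of those with a mean of at least 1000). Of all genes tested 9.36% fell, and of those with a mean of at least 1000 14.5%. Its median log2 difference was -0.13, and 18 of the 21 genes were below 0. By library, the median deviation of the class from the GFP mean was -0.07 to 0.07 in GFP and -0.19 to -0.04 in Sox11 libraries on the log2 scale, so that Sox11 3 at -0.04 lay within the GFP range. The summed neuron markers were lower in every Sox11 library than in any GFP library, while the summed granule neuron markers overlapped. The part of neurons in the falls of these genes, many of them abundant in neurons, was not tested. The V1 sector, with 10 of the 21 tested genes, accounted for 5 of the 7. These 5 of 10 stand beside 9.36% of all genes tested that fell and 14.5% of those with a mean of at least 1000. Atp6v1c1 (ENSMUSG00000022295, chromosome 15, 38661933 to 38692446, plus strand), a subunit at the joint of the V1 and Vo sectors, was at 14588, 14046, 16469, 16193 and 16454 normalized counts in GFP and 11458, 11819, 12371, 11930 and 12004 in Sox11 libraries. The Sox11 values lay in a narrow band below all GFP values, and the mean fell by 23.4% (log2 difference -0.38, SE 0.05, adjusted p = 0.000822 by limma). Atp6v1g2 (ENSMUSG00000024403, chromosome 17, 35233660 to 35238767, plus strand), the stalk subunit typical of neurons, was at 23854, 22015, 25660, 25834 and 27417 and 19679, 20749, 20419, 19281 and 19188 normalized counts. Again no library of one group reached the other, and the log2 difference was -0.33 (SE 0.06, adjusted p = 0.00365). Atp6v1d (ENSMUSG00000021114, chromosome 12, 78840725 to 78861638, minus strand), part of the rotating shaft, was at 14512, 14349, 15305, 15337 and 14516 and 11339, 11266, 11496, 12738 and 13587 normalized counts, without overlap (log2 difference -0.30, SE 0.06, adjusted p = 0.00521). These 3 genes passed whichever library was left out.

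Calls of the other V1 genes were less secure. The catalytic subunit Atp6v1a (ENSMUSG00000052459, chromosome 16, 44085402 to 44139705, minus strand) was at 46203, 46079, 51974, 56742 and 54109 normalized counts in GFP and 40558, 41868, 44530, 42924 and 46766 in Sox11 libraries. GFP 1 and GFP 3 lay below Sox11 7, and the log2 difference was -0.23 (SE 0.07, adjusted p = 0.0388). The regulatory subunit Atp6v1h (ENSMUSG00000033793, chromosome 1, 5070018 to 5162529, plus strand) was at 7704, 8115, 8876, 8567 and 8684 and 7025, 7215, 7401, 7134 and 7892 normalized counts, with Sox11 7 above GFP 1 (log2 difference -0.19, SE 0.05, adjusted p = 0.0218). Without GFP 4, 5 or 6, or Sox11 1, 2, 3 or 6 the adjusted p of Atp6v1a rose to at most 0.0921, and without GFP 4 or 6, or Sox11 1 that of Atp6v1h to at most 0.056. Atp6v1b2, which forms the head together with Atp6v1a, differed by -0.16 (SE 0.06) without passing (adjusted p = 0.0889), and it passed without GFP 3 (adjusted p = 0.0445). Atp6v1e1 differed by -0.12 (SE 0.05) (adjusted p = 0.132). Atp6v1c2, a form of kidney and other epithelia in mouse, had the largest difference of the class, -0.61 (SE 0.25), at 67.1 to 134 normalized counts in GFP and 45.1 to 92.5 in Sox11 libraries, which overlapped (adjusted p = 0.12).

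In the Vo sector 1 of 8 genes fell (12.5%, beside 9.36% of all genes tested and 14.5% of those with a mean of at least 1000). Atp6v0b (ENSMUSG00000033379, chromosome 4, 117884326 to 117887333, minus strand), a subunit of the proton-carrying ring, was at 8497, 8165, 8276, 8856 and 9011 normalized counts in GFP and 8013, 7603, 7845, 7999 and 7519 in Sox11 libraries. The groups did not overlap, by a small margin, and the log2 difference was -0.13 (SE 0.04, adjusted p = 0.0467). Its call was lost without GFP 1, 4, 5 or 6, or Sox11 1, 2, 3, 6 or 7 (adjusted p at most 0.109), and in edgeR it did not pass (adjusted p = 0.063). Genes on the opposite strand cover 11.8% of its exonic bases. The neuronal a subunit Atp6v0a1 differed by -0.15 (SE 0.06) (adjusted p = 0.11, and 0.0334 without GFP 3), and Atp6v0d1, Atp6v0a2 and Atp6v0e by -0.02 (SE 0.05), 0.02 (SE 0.06) and -0.01 (SE 0.12), the last of which was 0.11 without GFP 3. Of the accessory proteins, Atp6ap2 (ENSMUSG00000031007, chromosome X, 12587801 to 12617049, plus strand), also known as the prorenin receptor, was at 9475, 10981, 11289, 10460 and 10617 normalized counts in GFP and 8398, 8758, 8373, 8312 and 8697 in Sox11 libraries. All Sox11 libraries lay below all GFP libraries, and the log2 difference of -0.31 (SE 0.05, adjusted p = 0.0017) held whichever library was left out. Atp6ap1 did not pass (log2 difference -0.05, SE 0.04, interval -0.13 to 0.03).

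The promoters of some of these genes hold the E-box CACGTG, the core of the site bound by the lysosomal regulator TFEB and by other factors of its type. It was searched for, with its longer form TCACGTGA, which contains it, from 250 bases before to 50 bases after the start site; both are palindromes, so one search covers both strands. A window was at hand for 54 of the 75 members, and a gene was counted where any of its windows held the motif. CACGTG occurred in 11 of them (20.4%) and in 8.09% of 27025 RefSeq genes with a window. The 27025 genes were not chosen by level as the members were, so the shares are not matched. The share among genes expressed here was not counted. By class it was in 4 of 15 V-ATPase genes and likewise in 4 of 15 ATP synthase genes (26.7% each), and in 3 of 23 P-type genes. TCACGTGA occurred in 5 of the 54 member windows (9.26%) and in 304 of all 27025 windows: 3 of 15 in the V-ATPase, 2 of 23 in the P-type genes (Atp2b1 and Atp7a) and none of 15 in the ATP synthase. The stretches of 80 bases that follow are from the RefSeq annotation on GRCm38.p6. They are shown because they place the motif in all 4 V-ATPase genes that hold it and in the calcium pump gene Atp2b1. They read in the direction of transcription, and capitals mark CACGTG.
Atp6v1a (chr16:44139340-44139419, minus strand): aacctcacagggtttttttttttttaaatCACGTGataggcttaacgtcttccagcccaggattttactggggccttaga
Atp6v0b (chr4:117887310-117887389, minus strand): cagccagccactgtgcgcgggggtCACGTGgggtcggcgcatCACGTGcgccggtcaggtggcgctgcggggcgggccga
Atp6v0d1 (chr8:105566045-105566124, minus strand): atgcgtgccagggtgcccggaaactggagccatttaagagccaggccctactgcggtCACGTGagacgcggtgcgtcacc
Atp6v0e (chr17:26676336-26676415, plus strand): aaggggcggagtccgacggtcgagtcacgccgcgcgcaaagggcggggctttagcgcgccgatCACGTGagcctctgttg
Atp2b1 (chr10:98914582-98914661, plus strand): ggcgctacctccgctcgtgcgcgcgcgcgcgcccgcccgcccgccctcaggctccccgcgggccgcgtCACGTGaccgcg

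In these stretches a T before and an A after the capitals completes the longer form in Atp6v1a, Atp6v0d1, Atp6v0e and Atp2b1 but not at either site of Atp6v0b. Of these 5 genes Atp6v1a, Atp6v0b and Atp2b1 fell, while Atp6v0d1 and Atp6v0e did not pass the threshold. Among the 16 genes past the threshold that had a window, 3 held CACGTG (18.8%). The motif AACAAAG, to which Sox proteins bind, was searched for on both strands as well. It occurred in 5 of the 54 members with a window (9.26%) and in 6.68% of all genes with a window. None of the 15 V-ATPase genes and none of the 16 genes past the threshold held it. A match describes the letters of these windows only.

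Ratios of related genes within a library do not depend on the library's scaling. Of 20 such pairs, compared by a two-sided exact permutation test over the 5 and 5 libraries, none passed after Benjamini-Hochberg adjustment. The ratios of Atp6v1g1 to Atp6v1g2 and of Atp2b3 to Atp2b4 did not overlap between the groups and are named because of that, after their values were seen. The log2 ratio of Atp6v1g1, the broadly expressed stalk subunit, to Atp6v1g2 was -3.20 ± 0.14 in GFP and -2.86 ± 0.10 in Sox11 libraries (mean ± SD, n = 5), a difference of 0.34 (SE 0.08). For Atp2b3 to Atp2b4 it was 0.44 ± 0.32 and -0.17 ± 0.17, a difference of -0.61 (SE 0.16). Each had an exact p of 0.00794, the smallest that 5 against 5 libraries allow, and an adjusted p of 0.0794. Only 76.0% of the words of Atp6v1g1 are its own. The ratio of Atp1b1 to Atp1b2 was 2.04 ± 0.16 in GFP and 1.76 ± 0.08 in Sox11 libraries (exact p = 0.0238, adjusted p = 0.0952), with overlap.

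**Figure D4:**
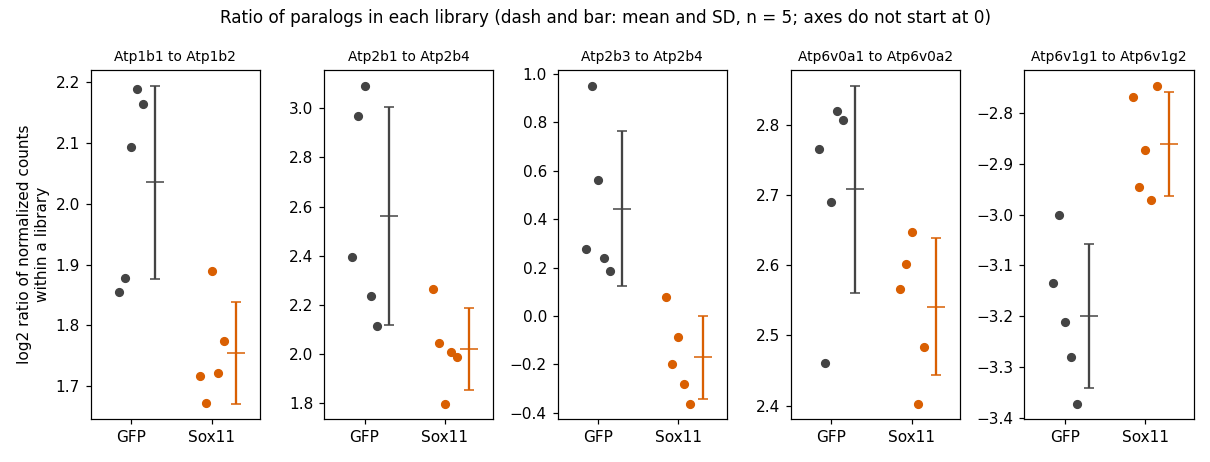
Log2 ratio of the normalized counts of 2 related genes within each library (vertical axis, which does not start at 0) for 5 of the 20 pairs compared, with points for the 5 GFP and 5 Sox11 libraries and a dash and bar for their mean and SD. The groups are apart for Atp2b3 to Atp2b4 and for Atp6v1g1 to Atp6v1g2, and they overlap for the other 3 pairs.

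Partners of the pumps, listed apart from the members, went in both directions. Of 18 tested partners and regulators of P-type pumps 3 rose (16.7%, beside 9.65% of all genes tested) and 2 fell (11.1%, beside 9.36%). Tmem30a, the subunit that most flippases need to leave the endoplasmic reticulum, was at 21387, 22748, 28153, 26634 and 25051 normalized counts in GFP and 16859, 16976, 16774, 17060 and 18138 in Sox11 libraries. The groups did not overlap, and the log2 difference of -0.52 (SE 0.07, adjusted p = 0.000664) was larger than that of any flippase gene past the threshold. Nptn, a subunit of the plasma membrane calcium pumps, was at 30045, 30459, 34255, 33031 and 32370 and 23997, 24225, 23557, 25340 and 24471 normalized counts, without overlap (log2 difference -0.40, SE 0.05, adjusted p = 0.00037). The increases were those of Agrn, whose product binds the sodium pump of neurons among other partners, and of Nkain1 and Nkain4, named for their interaction with the sodium pump. Agrn was at 8457 ± 399 normalized counts in GFP and 14764 ± 1098 in Sox11 libraries (log2 difference 0.80, SE 0.06, adjusted p = 1.43e-05). Nkain1 was at 925 ± 105 and 1418 ± 106 (log2 difference 0.62, SE 0.08, adjusted p = 0.00049), and Nkain4 at 1081 ± 66.3 and 1378 ± 41.6 (log2 difference 0.35, SE 0.05, adjusted p = 0.000904).

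Of 8 tested assembly and regulatory genes of the ATP synthase 1 rose and 1 fell (12.5% each, beside 9.65% and 9.36% of all genes tested). Atpaf1, a chaperone that helps to assemble the F1 head, was at 1552, 1426, 1533, 1457 and 1511 normalized counts in GFP and 1109, 1125, 1145, 1103 and 1036 in Sox11 libraries. It fell without overlap with a larger estimate than any subunit gene that fell (log2 difference -0.44, SE 0.04, adjusted p = 0.000107). Atpif1, which inhibits the enzyme when it runs in reverse, rose, from 5830 ± 395 to 6886 ± 422 normalized counts (log2 difference 0.24, SE 0.06, adjusted p = 0.0157). Of the words of Atpaf1 and Atpif1 only 76.9% and 68.5% occur in no other gene, so both counts are uncertain. Of the 36 complex I genes, whose products feed the proton gradient, 10 fell (27.8%) and none rose, with a median log2 difference of -0.08. The share that fell was 9.36% of all genes tested and 14.5% of those with a mean of at least 1000. Examples are Ndufv2 (log2 difference -0.19, SE 0.04, adjusted p = 0.00746), Ndufb5 (log2 difference -0.22, SE 0.05, adjusted p = 0.0124) and Ndufs1 (log2 difference -0.19, SE 0.05, adjusted p = 0.0154).

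Of 17 partners and assembly genes of the V-ATPase 1 rose (5.88%) and 3 fell (17.6%), beside 9.65% and 9.36% of all genes tested. Dmxl2, a subunit of the rabconnectin complex that helps V1 and Vo to join, differed by -0.29 (SE 0.08, adjusted p = 0.0295). The V-ATPase-binding Ncoa7 (log2 difference -0.24, SE 0.07, adjusted p = 0.0327) and the endosomal chloride-proton exchanger gene Clcn3 (log2 difference -0.19, SE 0.06, adjusted p = 0.0445) fell too, while the lysosomal exchanger gene Clcn7 rose (log2 difference 0.16, SE 0.05, adjusted p = 0.0381). Of 21 tested lysosome genes 2 fell (9.52%, beside 9.36% of all genes tested) and none rose. Those that fell were Tpp1 (log2 difference -0.22, SE 0.06, adjusted p = 0.0329) and Ctsb (log2 difference -0.17, SE 0.05, adjusted p = 0.0338). The median of the 21 was -0.02, beside -0.01 for all genes. Among 13 exchangers that move calcium or protons against sodium, which run on the gradient of the sodium pump, 4 fell and none rose. The share that fell was 30.8%, beside 9.36% of all genes tested. Slc24a4 fell from 1770 ± 139 to 988 ± 201 normalized counts (log2 difference -0.86, SE 0.13, adjusted p = 0.00123) and Slc24a2, abundant in neurons, from 46532 ± 5459 to 31178 ± 2334 (log2 difference -0.57, SE 0.08, adjusted p = 0.000921). Slc24a3 (log2 difference -0.31, SE 0.07, adjusted p = 0.00845) fell by less.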

How the data were processed

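Poly(A) RNA libraries from 10 mice, 5 per group, were made with a kit that keeps the strand (labels' protocols). As tools, the submitters' processing notes name the build GRCm38, the aligner STAR 2.5.2a, featureCounts 1.5.1 of Subread for counting, DESeq2 1.12.3 in R 3.3.1, and the read tools cutadapt 1.9.1 and bcl2fastq 1.8.4. Not given in the sources used here: strand setting, annotation release and treatment of multiply mapped reads. What the authors deposited is a signal, the normalized count of each gene in each library, that is, reads divided by a factor of the library. All values above 0 (100%) were whole multiples of 1 read within 0.01 reads, so reads were recovered. The 10 columns name groups but not samples, so they were assigned to groups only.

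GENCODE M21 (GRCm38) matched 48144 of 48526 identifiers. Of 92 Atp symbols 7 were not protein coding and were left out. Genes with a mean of at least 10 (17007) were fitted with limma 3.58.1 (R 4.3.3, trend and robust) on log2(normalized count + 1), which understates changes of low genes, with Benjamini-Hochberg adjustment over all of them and a threshold of 0.05. On simulated counts for this comparison and its 17007 genes, limma recovered 10% at 1.2-fold, 66% at 1.5-fold, 88% at 2-fold and 92% at 4-fold, each of 50 altered genes, and called 6 genes that had not been altered. Far fewer genes were altered there than the 3234 that passed in the data, which makes the adjustment stricter in the simulation. The recovered shares therefore do not tell how often changes as small as most of those described here are missed. A gene that did not pass is not shown to be unchanged. The p-values measure the spread between mice of a group, 1 library each, as far as the series' design text tells.

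Members, classes and lists were chosen with earlier results of these data known. Named genes are those past the threshold, the 3 highest per kb and the 3 of largest difference in each class (mean of at least 50 for the latter), the Atp1 and Atp2a to Atp2b families, the members next to the minimum mean, and up to 4 genes past the threshold per partner list; others were added after their values were seen, because they belong to the same complex or stood beside a count. A few genes that these rules name count in the totals but are not reported here. Exon length is that of all annotated exons of a gene merged. Words of 31 bases were compared between the transcripts of all genes; 17 members had under 90% of theirs to themselves. Other settings tried were quantile normalization, TMM scaling, a pseudocount of 0.5 or 8, a minimum mean of 50 or none, recovered reads in edgeR 4.0.16, in limma-voom and in DESeq2 1.42.0, limma with neither trend nor robust, column numbers as a covariate, and leaving out each library; separate fits of libraries numbered 1 to 3 and 4 and above were added after the data were seen. Promoter windows came from RefSeq on GRCm38.p6. Python 3.11.15, numpy 2.4.6, pandas 2.3.3, scipy 1.17.1 and matplotlib 3.10.9 were used.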

Additional observations from a re-analysis of the deposited data

Results flagged for a closer look

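In 71 of the members the highest and lowest library of each group was compared with the others of its group by Dixon's ratio of gap to range. Of 142 groups of 5 libraries, 3 had a library beyond the 95% critical value of 0.71, which chance alone gives in about 1 of 20 groups, and in all 3 it was GFP 3. Atp7a was at 923 normalized counts in GFP 3 and at 323 to 453 in the other GFP libraries. Atp6v0e, a Vo subunit of broad expression, was at 1280 and 801 to 920. Atp5h was at 8955 and 8332 to 8463. GFP 3 is also the library with a summed choroid plexus marker level of 585485 normalized counts, against 5100 to 9610 in the other GFP libraries, and its part in these 3 values was not tested. Without GFP 3 the log2 difference of Atp7a went from 0.20 to 0.46, that of Atp6v0e from -0.01 to 0.11 and that of Atp5h from -0.21 to -0.20. Of these only the call of Atp7a changed (adjusted p = 0.66 by limma with GFP 3 and 0.0142 without it).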

How the results depend on the processing

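No paired analysis was possible because the column numbers of the table (1, 3, 4, 5 and 6 for GFP, 1, 2, 3, 6 and 7 for Sox11) do not match the sample titles, which run from 1 to 5 in each group. Of 20 members past the threshold, 13 to 22 were found with 1 library left out; the lowest count came without GFP 4, GFP 5, GFP 6, Sox11 1 or Sox11 2 and the highest without GFP 3. The range was 5 to 9 (9 with all libraries) for P-type pumps, lowest without Sox11 2, 2 to 4 (4) for ATP synthase, lowest without GFP 5 or GFP 6, and 4 to 9 (7) for the V-ATPase, lowest without GFP 4, GFP 6 or Sox11 1. Quantile normalization left 12 members, 5 P-type pumps and 2 ATP synthase genes. The fit of the 5 libraries numbered 1 to 3 called 5 members, 3 P-type pumps, 0 ATP synthase and 2 V-ATPase genes, and those numbered 4 and above 2 ATP synthase genes. DESeq2 called 7 ATP synthase genes. The other counts stayed within 1.5 times.

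No gene past the threshold changed direction under any alternative run; these genes kept their side of the threshold in 356 gene-by-setting comparisons and lost it in 103. For genes that the rules above name and that did not pass, the difference changed sign in 22 gene-by-setting comparisons, and the cause was not tested. Other members that did not pass turned as well. Atp5d went from -0.06 to 0.06 in libraries numbered 1 to 3, and Atp9a from 0.03 to -0.15 in those numbered 4 and above. With 1 library left out the log2 difference ranged from -0.19 to 0.066 for Atp1b3, -0.052 to 0.047 for Atp23, -0.025 to 0.61 for Atp2a1 and -0.18 to 0.24 for Atp2a3. Libraries numbered 1 to 3 gave -0.032 for Atp1b2, -0.79 for Atp2a1, -0.38 for Atp2a3 and 0.0036 for Atp6v0e2, and those numbered 4 and above gave 0.10 for Atp1b3 and -0.073 for Atp23. With column numbers as a covariate the values were -0.020 for Atp23 and -0.18 for Atp2a3. Quantile normalization gave -0.0065, edgeR -0.032 and DESeq2 -0.044 for Atp2a3. Depth limits Atp4a, Atp8b3, Atp8b5, Atp6v0a4 and Atp6ap1l, which have few reads per library.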
